A study of Drosophila melanogaster with 3 samples.

Results

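Adh (FBgn0000055) encodes the alcohol dehydrogenase of Drosophila melanogaster, and its mRNAs were described here from full-length reads of adult heads. Every isoform model whose recorded gene or transcript identifier held the FBgn identifier of Adh was taken, which gave 3 of the 5980 models in the assembly, and 1 of the 4696 genes it names. The reads came from FLAM-seq, a PacBio method that sequences mRNAs in full together with their poly(A) tails. A single group was sequenced, namely heads of untreated 3-day-old adult w1118 flies (a standard laboratory strain with white eyes), in 3 samples of 4 µg total RNA each. The samples were merged before assembly, so each model below is 1 structure for the pool, given with no identified read count, no value per sample and no error, and no statistical test could be made.

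The enzyme oxidises ethanol and other small alcohols to aldehydes, and adults express it most strongly in the fat body. The gene is a textbook case of alternative promoters: a proximal promoter next to the coding sequence serves mainly larvae, and a distal promoter further upstream serves mainly adults, so that the stages differ in the untranslated leader and make the same protein. Downstream of Adh lies Adhr (Adh-related), a relative whose coding sequence can be carried on a shared, dicistronic transcript with that of Adh.

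In the Ensembl annotation Adh has 5 transcripts, of which 3 begin at the distal start (chromosome 2L, position 14615552, dm6, plus strand) and 2 at the proximal start (14616267), 715 nt further downstream. Of these 5, 2 extend through the Adhr coding sequence. Adhr (FBgn0000056) has 3 transcripts, of which 2 have exactly the exons of the long Adh transcripts and 1, Adhr-RC, begins on its own at 14617511. Both genes are nested in a 24162-nt intron of osp (outspread), which is transcribed from the opposite strand and had 0 models in the head assembly.

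The DNA upstream of these 3 starts is shown with the TATA-like letters in capitals. It played no part in the promoter assignment, which was made by the 5′ end of each model. The distal stretch (chr2L:14615452-14615551) runs up to the base before the start. The other 2 stretches (chr2L:14616222-14616251 and chr2L:14617466-14617495) cover positions -45 to -16 from the proximal and the Adhr start. All sequences were read from the dm6 reference genome, 5′ to 3′ on the plus strand.
distal promoter: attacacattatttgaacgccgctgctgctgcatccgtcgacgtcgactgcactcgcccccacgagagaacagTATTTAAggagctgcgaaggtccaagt
proximal promoter: ctgtacggatcttccTATAAAtacggggcc
upstream of Adhr start: gagcggcaggaatggcggagcatggccaag

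The motifs TATAAA and TATTTAA were searched on the transcribed strand only, from 45 to 15 nt before a start, and were chosen after these promoters had been read. The distal promoter held TATTTAA with its first base at -27 and no TATAAA. The proximal promoter held TATAAA with its first base at -30 and no TATTTAA. Neither was found in the window before the Adhr start. Of 19253 annotated starts of coding transcripts, 7.77% held TATAAA and 1.06% held TATTTAA in the same window.

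Both models that hold the Adh coding sequence began at the distal promoter, and 0 models began at the proximal one. The first, called the spliced-leader model here, spanned chr2L:14615553-14617402 with 4 exons of 91, 135, 405 and 425 nt (1056 nt in all). Its 3 introns were those of the annotated transcript Adh-RC, for which the model is named. The second, the unspliced-leader model, covered the same span with 3 exons of 885, 405 and 425 nt (1715 nt in all). These models shared their 5′ end, their 3′ end, the introns in the coding sequence and all coding bases. They differed by 1 intron of 659 nt, which was removed in the first and kept in the second. With no read counts identified, proximal reads below the minimum of full-length reads set for a model cannot be told apart from none. The assembly also asked for a 5′ end in a promoter database, and whether the proximal start is in it was not tested. The lack of a proximal model therefore does not show that the proximal start was unused.

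**Figure D1:**
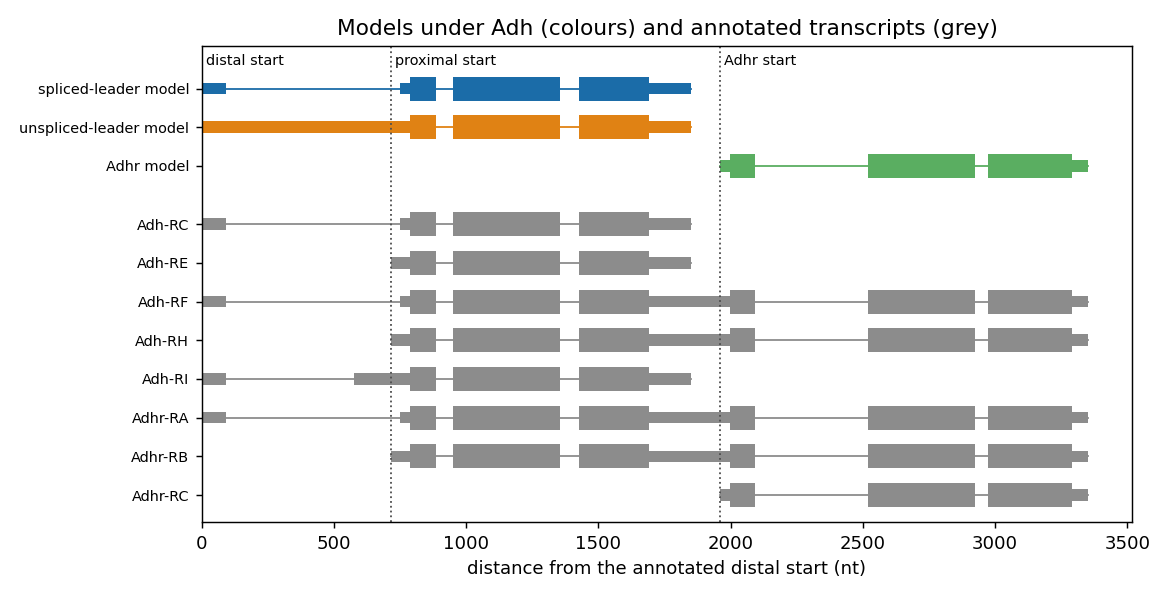
Exon structures plotted by distance from the annotated distal start (nt), with the 3 models in colour above the 8 annotated transcripts in grey. Tall boxes are coding, low boxes are untranslated, thin lines are introns and dotted lines mark the annotated starts; both Adh models begin at the distal start, and the model of Adhr begins after both have ended.

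The name of the unspliced-leader model pointed to the other promoter. It carries the name of Adh-RE, an annotated transcript of the proximal promoter with the same intron chain, yet its first exon began 714 nt upstream of the Adh-RE start and ran through the proximal promoter without a break. Assigned by name, 1 model would count as proximal. Assigned by its 5′ end, as was done here, none did. Among 4374 models named for an annotated transcript and recorded under an annotated gene, 362 (8.28%) began over 50 nt from that transcript, 156 of them upstream and 206 downstream, and 8 began at least as far upstream as the Adh model.

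No annotated Adh transcript has the exons of the unspliced-leader model. The annotated transcript Adh-RI also begins at the distal start, but its first intron (chr2L:14615644-14616128) runs from the same donor to an acceptor further upstream, which no model used. Keeping an intron was common in the assembly: in 334 of the 698 genes with at least 2 models (47.9%), some model held a whole intron of another.

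The ends of the leader intron (chr2L:14615644-14616302) are shown because it is what distinguishes the models, and the introns of the coding sequence because both models removed them, with the first and last intron bases in capitals. The 5′ end covers chr2L:14615644-14615663 and the 3′ end chr2L:14616273-14616302. The introns of the coding sequence lie at chr2L:14616438-14616502 and chr2L:14616908-14616977.
leader intron, 5′ end: GTaagtagcaaaagggcaca
leader intron, 3′ end: actaacggagccctcttccaattgaaacAG
first coding intron of Adh: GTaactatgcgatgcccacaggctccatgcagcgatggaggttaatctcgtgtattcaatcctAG
last coding intron of Adh: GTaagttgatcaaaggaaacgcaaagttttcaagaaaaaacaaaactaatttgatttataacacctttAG

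The introns in the coding sequence were short, at 65 and 70 nt, and every annotated Adh transcript has both. They were close to the middle of the assembly's intron lengths: the median of the 12981 distinct introns of the assembly was 71 nt (quartiles 61 and 352 nt), and 302 of them measured exactly 65 nt. The 65-nt intron had 49.2% G and C and the 70-nt intron had 27.1%. The leader intron, at 659 nt and 38.1% G and C, was longer than 81.7% of the assembly's introns. Over the whole assembly 99.1% of distinct introns began with GT and ended with AG, as did all of those under Adh.

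**Figure D2:**
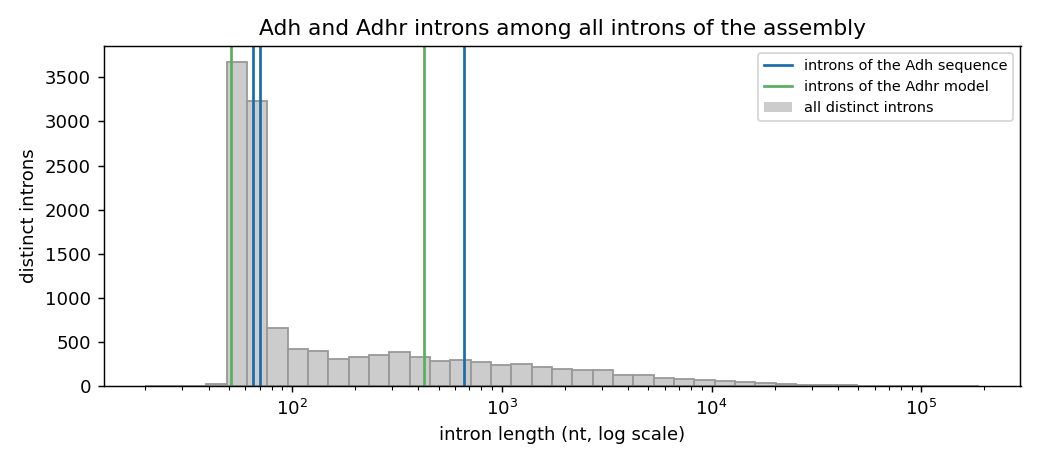
Number of distinct introns by length (nt, log scale) over all models, in grey, with the introns of Adh as blue lines and those of Adhr as green lines. The coding introns of Adh (65 and 70 nt) stand among the short introns and the leader intron (659 nt) in the long tail.

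The leaders of the 2 Adh models measured 127 nt in the spliced-leader model and 786 nt in the unspliced-leader model. Among 5225 models that hold a whole annotated coding sequence of their gene, the median leader was 120 nt (quartiles 73 and 220 nt). The spliced leader was longer than 52.8% of these and the unspliced one longer than 97.9%. The spliced leader held 1 ATG upstream of the Adh start codon and the unspliced leader held 4, and every one of them met a stop codon before the Adh start. The ATG they shared began at the very first base of both models, 1 nt inside the annotated distal start. It opened a reading frame of 28 codons that ended before the leader intron. The longest of the upstream reading frames, of 55 codons, was found only in the unspliced leader.

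**Figure D3:**
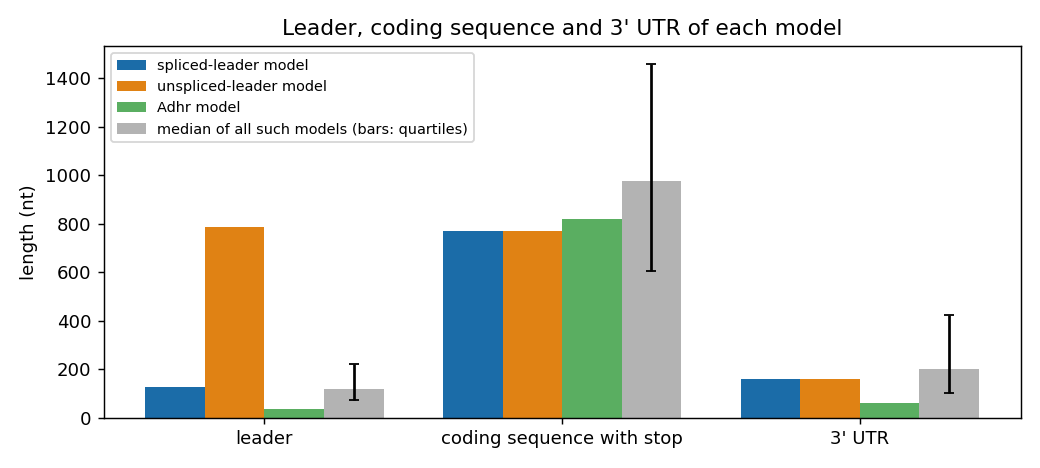
Lengths (nt) of the leader, the coding sequence with its stop codon and the 3′ UTR in the 3 models, with the median over 5225 models in grey and its quartiles as error bars. The unspliced leader (786 nt) stands well above the quartiles, while both Adh models have the same coding sequence (771 nt) and 3′ UTR (158 nt).

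The coding sequence was whole in both Adh models, with 771 nt including the stop codon, or 256 codons before it, from position 14616339 to 14617244. It is spread over 3 exons with 99, 405 and 264 coding nt, of which the middle exon is coding throughout. Of the models with a whole coding sequence, 36.6% had a shorter one. The 20 bases around the Adh start codon (chr2L:14616329-14616348) and the Adhr start codon (chr2L:14617538-14617557) are shown with the ATG in capitals, since each marks where a leader ends.
Adh start codon: agaagtcaccATGtcgttta
Adhr start codon: gatagaaagaATGttcgatt

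Both Adh models ended at 14617402, the annotated 3′ end of the short Adh transcripts, and had a 3′ UTR of 158 nt. The median 3′ UTR over the 5225 models was 199 nt (quartiles 102 and 422 nt), and 42.1% were shorter than that of Adh. The canonical poly(A) signal AATAAA began 32 nt upstream of the Adh end, counting the last base as 1. Of 4910 gene 3′ ends, 2677 (54.5%) had AATAAA within their final 50 nt, at a median of 23 nt (quartiles 19 and 28 nt), and 82.9% of those ends had it nearer than Adh. The next 10 genomic bases after the end of Adh held 6 A, and 5 A followed that of the third model. No count over all ends stands beside these. The windows around the signals (chr2L:14617367-14617396 and chr2L:14618850-14618879) are shown with AATAAA in capitals, and they stop 6 and 23 nt short of the 3′ ends.
Adh 3′ end: cgatAATAAAactttccatgaaaaatatgg
Adhr 3′ end: atcaAATAAAataatgctttacgcaaaaag

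**Figure D4:**
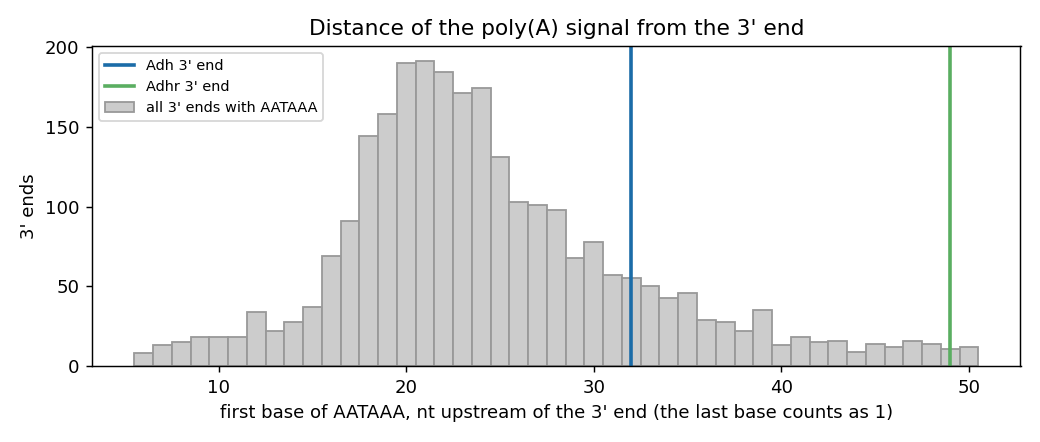
Number of 3′ ends (grey bars) by the distance of the first base of AATAAA from the end, in nt, over the ends that have it in their last 50 nt. The Adh end (blue, 32 nt) stands to the right of the peak and the Adhr end (green, 49 nt) near the edge of the searched window.

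The third model recorded under Adh was a transcript of Adhr. It spanned chr2L:14617512-14618902 with 3 exons of 132, 405 and 377 nt (914 nt in all), and it is named for Adhr-RC, whose introns and 3′ end it has and whose start lies 1 nt upstream of its own. It held all 816 coding bases of Adhr without the stop codon and 0 of the 768 coding bases of Adh. It began 110 nt downstream of the end of the Adh models and shared no exon base with them. No model carried the identifier of Adhr. Of the 4374 named models, 49 (1.12%) were named for a transcript of another annotated gene than the one recorded. The annotation used here is a later release than that of the study, and whether the releases differ at this locus was not tested.

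The Adhr model had a leader of 36 nt, a coding sequence of 272 codons and a 3′ UTR of 59 nt, against 127 or 786 nt, 256 codons and 158 nt in the Adh models. Only 10.1% of models had a shorter leader and 9.36% a shorter 3′ UTR. Its leader held 0 upstream ATGs. Its AATAAA lay 49 nt from the end, at the edge of the 50-nt window searched, so that its place among all ends could not be read. Of the 40 genomic bases that follow the end, 34 were T, against 9 after the Adh end, with no count over all ends to set beside these.

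The exon layout of Adhr paralleled that of Adh. Its 3 coding exons held 96, 405 and 315 coding nt, so that the middle exons of both genes were of equal length. The proteins, translated from the reference genome, have 256 residues in Adh and 272 in Adhr, and 98 of 253 aligned residues (38.7%) were identical. The introns differed more. The first intron of the Adhr model measured 426 nt, and the second, at chr2L:14618475-14618525, measured 51 nt, a length under which only 0.709% of the assembly's introns fell. It is shown as the shortest of the 5 distinct introns at the locus.
second intron of Adhr: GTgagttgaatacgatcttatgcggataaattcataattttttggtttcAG

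No model ran on from Adh into Adhr. Models with coding bases of both genes numbered 0, and none of the 4 annotated dicistronic transcripts (Adh-RF and Adh-RH, with their Adhr counterparts) had its introns in a model. A count of models with a base in any annotated Adhr exon gives 3, since the annotated dicistronic Adhr transcripts contain the exons of Adh. With no read counts identified, dicistronic reads below the minimum of 2 full-length reads set for a model cannot be told apart from none. Over the assembly, 24 of 5750 models of annotated genes (0.417%) ran on into a coding gene that lies wholly downstream on the same strand. Adh and Adhr could not count under this rule, because the dicistronic transcripts make their annotated spans overlap. The share is therefore no baseline for the 0 models with coding bases of both genes. The longest overlaps were those of CG18853 into CG12822 (1086 nt), CG9396 into CG16790 (1027 nt), Obp57c into Obp57b (720 nt), CG34454 into CG42846 (564 nt) and lectin-37Da into lectin-37Db (548 nt).

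Dicistronic transcripts elsewhere were represented in the assembly. The annotation has 250 pairs of coding genes that, like Adh and Adhr, share a transcript of identical exons and have coding sequences that do not overlap, and 107 of these pairs had a model. Pairs were not required to have transcripts of each gene alone as well, as Adh and Adhr do, and neighbouring genes could form several pairs. In 69 of the 107 (64.5%) some model held coding bases of both genes. In 33 there were models of 1 of the genes only. In the remaining 5 each gene had models of its own and none held both: Adh with Adhr, CG11889 with CG11891, CG13510 with CG42565, CG15717 with MFS10, and CG7215 with Prx5. In all 5 the separate models of both genes were recorded under a single gene identifier. For CG13510 with CG42565 this was CG13511, which is neither gene of the pair.

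The way the models were recorded set the class of Adh. By the study's windows, which separate 5′ ends more than 50 nt apart and 3′ ends more than 150 nt apart, the 3 models gave 2 TSSs, 2 3′ ends and 2 5′-3′ isoforms, and so placed Adh among 80 genes with alternative TSSs and alternative 3′ ends (ATSS-APA genes). With each model given to the gene of the transcript that names it, Adh had 2 models, 1 TSS, 1 3′ end and 1 5′-3′ isoform. By the same step 74 genes stayed in the class, 0 entered and 6 left it, namely Adh, CG11891, CG13511, MFS10, Prx5 and drn. In 6 of the 80 genes some models shared no part of their span, namely Adh, CG11891, CG13511, MFS10, Prx5 and vir-1.

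**Figure D5:**
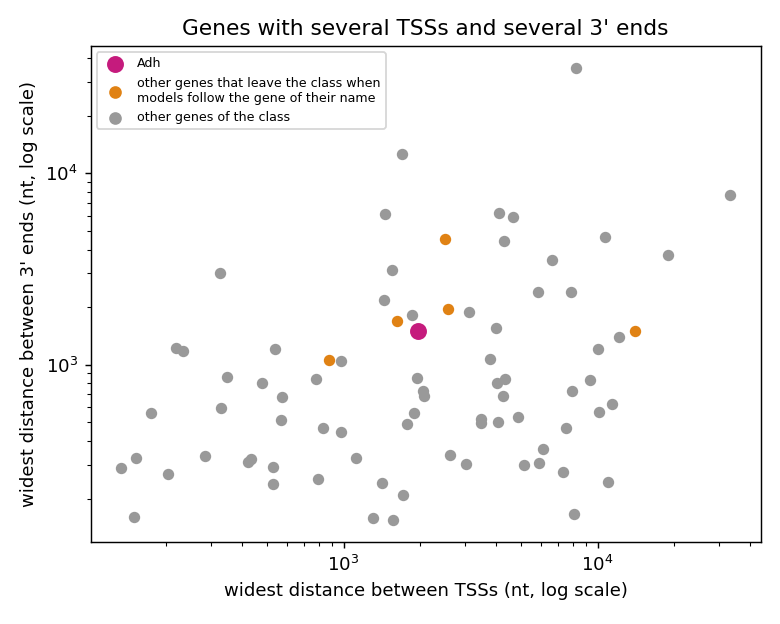
Widest distance between TSSs against widest distance between 3′ ends (both in nt, log scales) for the 80 ATSS-APA genes, with Adh in magenta and the other 5 genes that leave the class in orange. Adh (1959 and 1500 nt) lies among the other genes on both axes.

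As recorded, the TSSs of Adh lay 1959 nt apart, at rank 41 of 80 and against a median of 2009.5 nt, and its 3′ ends lay 1500 nt apart, at rank 23 and against a median of 709 nt. The 5 genes most like it, by the distance of these values on log10 scales over the 80 genes, were dl, CG11891, CG13511, 14-3-3zeta and Ald1. The TSSs and 3′ ends of dl, the NF-kappaB factor Dorsal, lay 1854 and 1816 nt apart (log10 distance from Adh 0.0864). Those of CG11891 lay 1620 and 1684 nt apart (0.0966) and those of CG13511 lay 2582 and 1963 nt apart (0.167). The values were 1446 and 2176 nt (0.209) in 14-3-3zeta, a phosphoprotein-binding adaptor, and 3133 and 1897 nt (0.228) in Ald1, the glycolytic aldolase. CG11891 and CG13511 are among the genes that left the class.

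Of 9 listed enzymes of alcohol, aldehyde and acetate handling, 8 had a model, against 33.4% of all 13945 annotated coding genes. Adh itself is counted in both the 9 and the 8, and was certain to have a model. The list was also chosen with earlier results of these data known, so these shares are not a test of the pathway. Aldh, the aldehyde dehydrogenase that takes up acetaldehyde after Adh, had 2 models with 2 TSSs 170 nt apart and 1 3′ end. Aldh-III, another aldehyde dehydrogenase, had 12 models with 3 TSSs and 2 3′ ends. Cat, the catalase that breaks down hydrogen peroxide, had 2 models with 1 TSS and 1 3′ end. Fdh (formaldehyde dehydrogenase), Gpdh1 (glycerol-3-phosphate dehydrogenase), Men (malic enzyme) and Idh (isocitrate dehydrogenase) had 1 model each. AcCoAS, which makes acetyl-CoA from acetate, had 0. As recorded, Adh was thus 1 of 2 genes in this list with more than 1 3′ end.

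Among relatives in the short-chain dehydrogenase family, Pdh, the photoreceptor dehydrogenase, had 3 models of 912 to 971 nt with 1 TSS and 1 3′ end, while Fbp2, a protein of the larval fat body, had 0. The DNA-binding proteins Adf1, which binds the distal promoter, Aef1, which binds the adult enhancer, slbo, a C/EBP factor, and ftz-f1, a nuclear receptor, had 0 models each. Markers of the tissues in a head were represented in part, beside a share of 33.4% over all coding genes: 5 of 7 fat body genes had a model (Lsp2, a storage protein, the yolk proteins Yp1, Yp2 and Yp3, and the lipid droplet protein Lsd-1), as had 3 of 5 photoreceptor genes (ninaE, Arr1 and Arr2), 1 of 4 neuronal genes (nSyb) and 2 of 3 glial genes (Eaat1 and Gs2). The defining neuronal and glial markers elav, brp and repo had 0 models. The same held for the neuronal gene Syt1, the photoreceptor genes ninaC and trp, and the fat body genes Fbp1 and apolpp. A gene without a model is one for which the pooled reads gave no structure, and its expression cannot be read from that.

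The ends of the Adh models lay at annotated ends, as did those of most models. All 3 began 1 nt inside an annotated start and ended exactly at an annotated 3′ end. For the third model, recorded under Adh, this start was that of Adhr-RC, and no annotated Adh transcript begins there. Of 5750 models of annotated genes, 90.8% had a 5′ end and 72.3% a 3′ end at the very base of an annotated end of their gene, allowing for this shift of 1 nt at the leftmost base. Of the 2863 models on the plus strand, 2510 began 1 nt inside an annotated start and 43 exactly on one. The method of assembly asked for a 5′ end in a promoter database, and its part in this was not tested.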

How the data were processed

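FLAM-seq reads of 3 head samples were processed by the authors, who mapped them with STARlong, merged the replicates, corrected splice junctions with short reads and collapsed reads to isoforms with FLAIR, asking for a 5′ end supported by a promoter database and at least 2 full-length reads. The submitters' processing notes also name featureCounts and the build dm6. The study also filtered and corrected 3′ ends against a database of poly(A) sites. Whether that step reached the deposited assembly is not stated, which bears on the 3′ ends reported. The deposited table holds exon start and end positions and 1 whole number per model of no stated meaning. That number tracked model length (median ratio 0.995, 5th to 95th percentile 0.899 to 1.04) and was not used as a count. Depth is taken as unknown, and no interval or test could be given.

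Models were read with Python 3.11.15 and compared with Ensembl release 115 and the dm6 genome. Models of 1 exon were turned to the strand of their gene. TSSs more than 50 nt apart and 3′ ends more than 150 nt apart counted as distinct. Proteins were aligned globally with Biopython 1.88 (BLOSUM62). The end grouping was tested on simulated models. Unused per-sample columns numbered 0.

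Named genes were Adh, Adhr, osp, listed genes, the 5 ATSS-APA genes most like Adh in spacing and the 5 longest run-on cases. Genes, lists and motifs were chosen with earlier results of these data known. Alternatives covered the windows, promoter rule, signal window, run-on rule and gene assignment.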

Additional observations from a re-analysis of the deposited data

How the results depend on the processing

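The numbers of TSSs, 3′ ends and 5′-3′ isoforms of Adh stayed at 2 each under every other window tried. The windows were 20 and 100 nt for 5′ ends and 20, 50 and 300 nt for 3′ ends. None of them could have changed these counts. The 2 Adh models share their ends, and the ends of the Adhr model lie 1959 and 1500 nt away. An alternative chosen after seeing the data, giving each model to the gene of the transcript that names it, gave 1 TSS, 1 3′ end, 1 5′-3′ isoform, 1 3′ end with a poly(A) signal and 3 annotated introns in place of 2, 2, 2, 2 and 5, because it leaves out the Adhr model. Read from the first intron in place of the 5′ end, 1 model was distal in place of 2, since the other has no leader intron. AATAAA or ATTAAA was found at 0 of the 2 ends in the last 20 nt and at 1 in the last 35 nt, against 2 in the last 50 or 100 nt. Models running on into Adhr numbered 3 by any annotated Adhr exon and 0 by coding bases of both genes (also added after seeing the data). Over the assembly, 24 models ran on into a gene wholly downstream by at least 1 exon base and 15 by at least 50. The count of 80 ATSS-APA genes was 104 with strands as recorded and 60 to 91 under other windows. Leaving out a replicate was not possible because the samples were merged. No paired analysis was possible because there is a single group and no value per sample. With no read count identified in the assembly, a model from many reads cannot be told from one at the minimum of 2.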
